A study of Homo sapiens with 12 samples.

Results

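The forkhead genes FOXQ1, FOXA1, FOXA2, FOXC1, FOXD1, FOXM1, FOXO1, FOXO3, FOXP1 and FOXK2 were described in HCT116 colorectal carcinoma cells and in 2 lines derived from them. Every probe set whose platform gene symbol was one of these 10 genes was taken, which gave 33 of the 54675 probe sets on the array. Of these, 30 named a single gene and 3 named FOXO3 together with its near copy FOXO3B. Probe sets were found for 9 of the 10 genes, and no probe set was named for FOXC1 in the annotation used here, so that no value is given for it. The family was selected on measured values, because the genes were proposed with their differences between HCT116 and the derived lines in these same arrays known. Those differences, and the ones between the derived lines, are therefore given with their standard errors and single arrays and without a p-value, and counts of members past the threshold of the fit over all genes serve only as a description.

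The arrays were Affymetrix U133 Plus 2.0 arrays of total RNA, with 3 arrays in each of 4 groups. HCT116 control doxycycline was HCT116 control cells given 25 ng/ml doxycycline, taken at day 3, and HCT116 control vehicle was the same cells given vehicle, also taken at day 3. Hke3 and Hkh-2 are each 1 line made from HCT116 by homologous recombination at the oncogenic RAS allele. The labels call both lines wild type for that gene, and the sources differ on whether the mutant allele was deleted or replaced. All cells were grown in DMEM with serum, and by the methods the recombined lines were kept in basal condition, so culture and line differ together between HCT116 control vehicle and either line and cannot be told apart. By the methods, doxycycline or vehicle was given to HCT116 cells holding an inducible vector for a hairpin RNA against RAS. The paper also names a control hairpin, and parental HCT116 cells kept in basal condition. The sources do not settle which of these the control cells are, and a vector in them would also differ together with line. Nor do they say whether replicate arrays were separate cultures, so a p-value here reflects array-to-array spread that could be technical.

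Forkhead proteins are transcription factors that share a winged-helix DNA-binding domain and bind closely related sequences. Some of them, such as FOXA proteins, open chromatin during gut development, whereas FOXO proteins carry signals from PI3K and AKT and leave the nucleus when AKT phosphorylates them. FOXM1 drives the genes of mitosis, and FOXQ1 is known in colorectal cancer as a WNT-responsive gene linked to loss of epithelial character.

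The deposited values are log2 probe set intensities, and groups that averaged less than 6 were treated as near background. Array medians lay between 5.80 and 5.86, and arrays of a group correlated at 0.993 to 0.998 over probe sets. All 9 colon epithelium markers examined reached 6 in at least 1 group. Among them CDX2 lay between 6.23 and 7.1, VIL1 between 6.36 and 6.65 and CEACAM5 between 6.46 and 7.03. KRT20 averaged 6.62 with doxycycline, 6.64 with vehicle, 6.855 in Hke3 and 8.86 in Hkh-2. Of the 3 white blood cell markers 1 reached 6 in a group (CD3E, 5.89 to 6.36, with CD14 at 4.88 to 5.51 and PTPRC at 3.68 to 4.13). Of the 5 fibroblast markers 3 did so, COL1A1 (8.11 to 8.52), DCN (5.86 to 6.44) and COL3A1, while COL1A2 lay between 4.94 and 5.53 and LUM between 2.96 and 3.47. COL3A1, a fibrillar collagen, averaged 4.45 with doxycycline, 4.49 with vehicle, 4.45 in Hke3 and 6.73 in Hkh-2. COL3A1 thus moved with the Hkh-2 group, as KRT20 did, and the part of either in the differences below was not tested. Replicate 2 of HCT116 control vehicle and replicate 3 of Hke3 departed from their group means in a similar way (r = 0.533 over probe sets), and values without both are given for FOXQ1, FOXO1, FOXO3, FOXD1, FOXM1 and FOXK2. The 5′ minus 3′ log2 signal of the actin control lay between −0.942 and −0.706 with doxycycline and between −0.855 and −0.48 with vehicle. It lay between −0.575 and −0.229 in Hke3 and between −0.324 and −0.232 in Hkh-2. The actin measure moved with the groups. That of the GAPDH control lay between 0.011 and 0.082 with doxycycline and between −0.03 and 0.091 with vehicle. In Hke3 it lay between 0.002 and 0.114 and in Hkh-2 between −0.033 and 0.015, so its ranges overlapped. The controls thus differ, and the part of RNA integrity in the differences below was not tested. In such bulk RNA, fewer cells expressing a gene and less RNA per cell cannot be told apart.

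FOXQ1 stood apart from the other members. Its only probe set (227475_at) read 5.78, 5.72 and 5.62 in HCT116 control doxycycline, 5.94, 5.83 and 5.85 in HCT116 control vehicle, 9.83, 9.64 and 8.97 in Hke3, and 9.36, 9.37 and 9.10 in Hkh-2. All 6 HCT116 control arrays lay under 6, and all 6 arrays of the recombined lines lay near 9 or above, with no overlap. The group mean was 5.87 ± 0.0566 in HCT116 control vehicle, against 9.48 ± 0.451 in Hke3 and 9.28 ± 0.154 in Hkh-2 (SD, n = 3 each). The log2 difference was −3.61 (SE 0.168) for HCT116 control vehicle minus Hke3 and −3.40 (SE 0.168) for HCT116 control vehicle minus Hkh-2. Because the HCT116 mean was near background, these amount to at least 3.48 and 3.28 on the log2 scale, or at least 11.1-fold and at least 9.69-fold lower in HCT116 control vehicle. Hke3 minus Hkh-2 was 0.20 (SE 0.168) with overlapping arrays. Without replicate 2 of HCT116 control vehicle and replicate 3 of Hke3, the FOXQ1 differences were −3.84 against Hke3 and −3.38 against Hkh-2. Hke3 minus Hkh-2 was then 0.46, over 1.5 times the value from all arrays.

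FOXQ1 is a short gene on chromosome 6 (GRCh38.p14, 1312098 to 1314758). The 250 bases before its annotated start are shown because FOXQ1 had the widest differences of the members tested, and those of FOXK2 because it was the only member called higher in HCT116 than in both lines. Both come from RefSeq and are given 5′ to 3′ on the strand of the gene, and capitals mark the letters ATTGG, the reverse complement of the CCAAT box.
FOXQ1 upstream, chr6:1311848-1312097, + strand: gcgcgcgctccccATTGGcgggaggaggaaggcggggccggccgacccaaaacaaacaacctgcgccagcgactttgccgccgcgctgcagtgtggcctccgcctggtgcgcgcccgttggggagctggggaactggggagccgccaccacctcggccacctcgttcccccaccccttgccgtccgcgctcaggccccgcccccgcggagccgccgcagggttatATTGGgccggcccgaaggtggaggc
FOXK2 upstream, chr17:82519482-82519731, + strand: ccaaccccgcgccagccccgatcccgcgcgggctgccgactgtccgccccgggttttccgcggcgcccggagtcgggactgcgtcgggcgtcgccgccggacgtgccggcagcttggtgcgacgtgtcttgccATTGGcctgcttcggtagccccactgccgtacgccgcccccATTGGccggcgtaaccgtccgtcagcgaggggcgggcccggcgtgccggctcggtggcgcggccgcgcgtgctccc
The FOXQ1 stretch was 74.0% GC with 29 CpG dinucleotides, and the FOXK2 stretch was 77.2% GC with 43 CpG dinucleotides. Windows from 250 bases before to 50 bases after the start were searched on both strands for 5 motifs, and 8 of the 10 members had a window. The forkhead motif TGTTTAC was in 3.4% of all 35116 promoter windows, the AP-1 motif TGACTCA in 4.9%, the ETS motif CCGGAAG in 10.3%, the TCF motif CTTTGAT in 2.6% and the CHR motif TTTGAA in 15.2%. None of these motifs occurred in the FOXQ1 or FOXK2 window. Only the exact letters were searched, so looser forms of a motif are not covered. Among the other members, the forkhead motif occurred in 1 FOXP1 window, with its first base 193 bases before that start, and the AP-1 motif in 1 FOXO3 window, 103 bases before that start. CCAAT, which was added after the sequences had been seen, was in 34.6% of all windows and occurred 2 times each in FOXQ1, FOXK2 and FOXC1 and 1 time in FOXO1 and in 1 FOXP1 window. These matches are letters in a window and describe no binding.

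**Figure D1:**
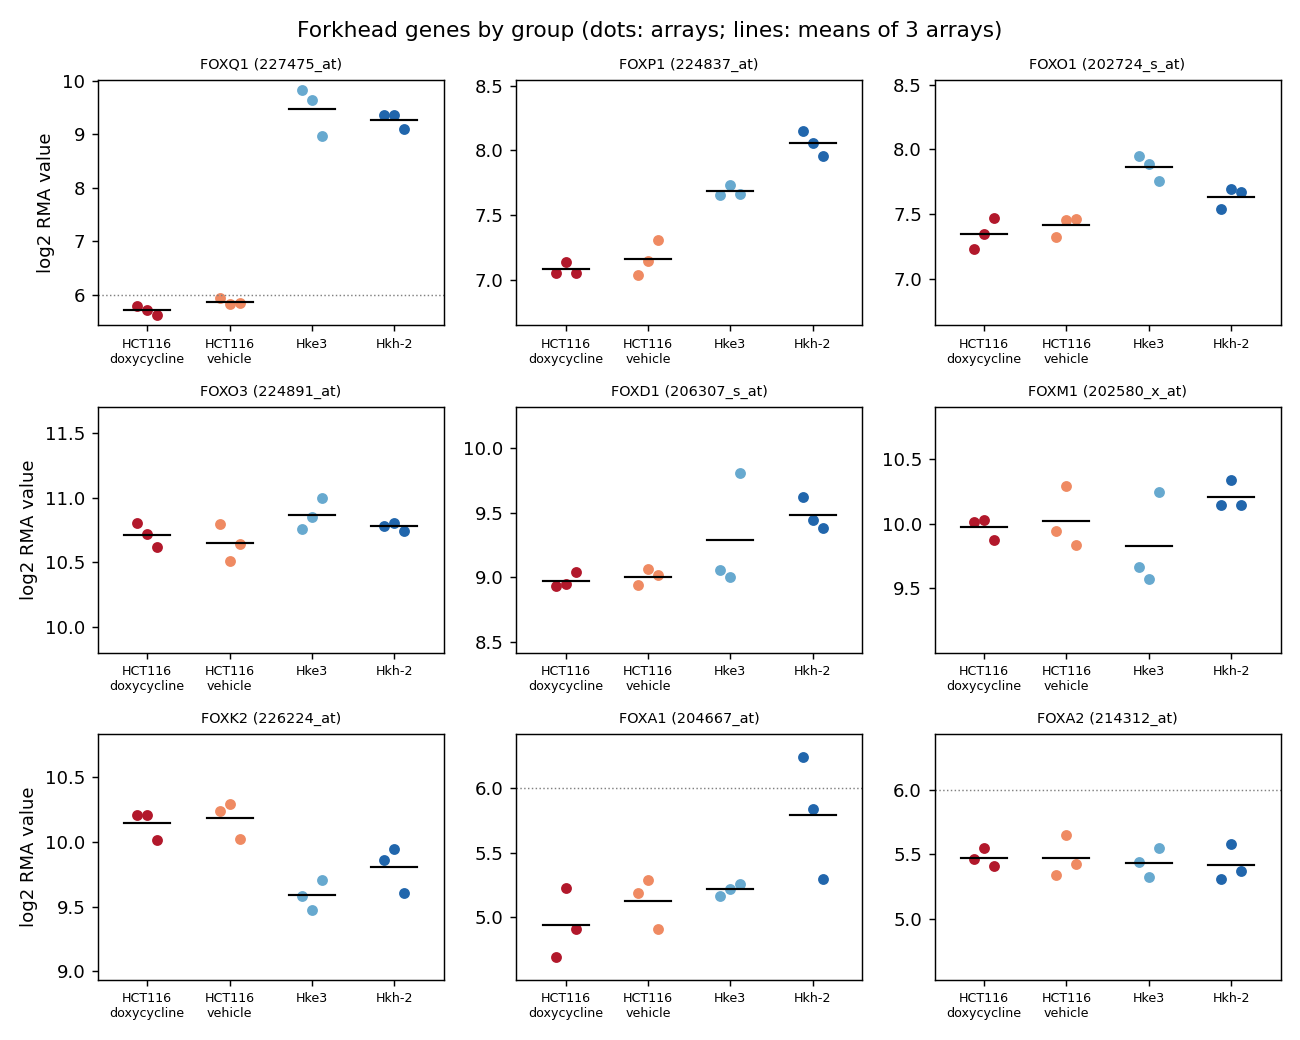
Deposited log2 RMA values (y axis) of 9 forkhead genes in HCT116 control doxycycline, HCT116 control vehicle, Hke3 and Hkh-2 (x axis). Dots are single arrays, black lines are means of 3 arrays, and the dotted line at 6, drawn where it falls in range, is the level taken as near background. FOXQ1 spans a wider y axis than the others and lies under 6 in all HCT116 control arrays and at 8.97 or above in every Hke3 and Hkh-2 array.

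FOXP1 represses transcription in lymphocytes and in several developing epithelia. Its probe set 224837_at read 7.05, 7.14 and 7.05 with doxycycline, 7.04, 7.15 and 7.31 with vehicle, 7.66, 7.74 and 7.66 in Hke3, and 8.15, 8.06 and 7.96 in Hkh-2. The groups formed 3 steps, with both HCT116 control groups lowest, Hke3 between and Hkh-2 highest, and neither step overlapped. HCT116 control vehicle minus Hke3 was −0.52 (SE 0.0822) and HCT116 control vehicle minus Hkh-2 was −0.89 (SE 0.0822), which is 1.44-fold and 1.86-fold lower in HCT116 control vehicle. Hke3 minus Hkh-2 was −0.37 (SE 0.0822). The only other FOXP1 probe set with a group mean of 6 or more, 224838_at, differed by −0.51 and −0.60 in the same contrasts against Hke3 and Hkh-2. On that probe set the arrays of Hke3 overlapped those of HCT116 control vehicle, and Hke3 minus Hkh-2 was −0.09. The other 6 of the 8 FOXP1 probe sets stayed under a mean of 6 in every group.

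FOXO1 and FOXO3 are the FOXO factors of the family, which AKT phosphorylation holds in the cytoplasm, a step that RNA levels do not report. FOXO1 (202724_s_at) read 7.23, 7.34 and 7.47 with doxycycline, 7.33, 7.46 and 7.46 with vehicle, 7.95, 7.89 and 7.76 in Hke3, and 7.54, 7.70 and 7.67 in Hkh-2. The 3 vehicle arrays lay below all arrays of both lines, by less against Hkh-2. The difference was −0.45 (SE 0.0856) for HCT116 control vehicle minus Hke3 and −0.22 (SE 0.0856) for HCT116 control vehicle minus Hkh-2, and Hke3 minus Hkh-2 was 0.23. A second FOXO1 probe set, 202723_s_at, gave −0.31 and −0.23 against Hke3 and Hkh-2, without overlap, and 0.08 for Hke3 minus Hkh-2. FOXO1 in HCT116 control vehicle differed by −0.53 from Hke3 and by −0.24 from Hkh-2 without replicate 2 of HCT116 control vehicle and replicate 3 of Hke3.

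FOXO3 (224891_at) read 10.81, 10.72 and 10.62 with doxycycline, 10.79, 10.51 and 10.64 with vehicle, 10.76, 10.85 and 10.99 in Hke3, and 10.78, 10.80 and 10.75 in Hkh-2. All groups overlapped, and the differences of HCT116 control vehicle were −0.22 (SE 0.0894) from Hke3 and −0.13 (SE 0.0894) from Hkh-2. These FOXO3 differences shrank to −0.09 and −0.06 without replicate 2 of HCT116 control vehicle and replicate 3 of Hke3, and leaving out only the vehicle array gave −0.15 and −0.06. Its probe sets did not go one way. For HCT116 control vehicle minus Hke3, 204131_s_at gave −0.01 and 224889_at gave −0.19, and for HCT116 control vehicle minus Hkh-2 they gave 0.25 and 0.13. The 3 probe sets shared with FOXO3B were on average higher in HCT116 control vehicle than in Hke3, by 0.43, 0.56 and 0.25 on the log2 scale. No single direction can be given for FOXO3 against either line.

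FOXD1, a factor of the kidney stroma during development, read 8.93, 8.95 and 9.04 with doxycycline, 8.94, 9.06 and 9.02 with vehicle, 9.06, 9.004 and 9.80 in Hke3, and 9.62, 9.45 and 9.38 in Hkh-2 (206307_s_at). The Hkh-2 arrays lay above all HCT116 control arrays, and Hke3 was split, with 1 array above the other 2. HCT116 control vehicle minus Hkh-2 was −0.48 (SE 0.163) and HCT116 control vehicle minus Hke3 was −0.28 (SE 0.163). Without replicate 2 of HCT116 control vehicle and replicate 3 of Hke3, HCT116 control vehicle minus Hke3 was −0.05. Hke3 minus Hkh-2 was then −0.45, against −0.19 with all arrays. Leaving out only replicate 3 of Hke3 gave −0.03 and −0.45 for FOXD1.

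FOXM1, which activates genes of the G2 and M phases, is read by 1 probe set (202580_x_at) of a kind that may bind other transcripts. It read 10.01, 10.03 and 9.88 with doxycycline, 9.94, 10.29 and 9.83 with vehicle, 9.67, 9.57 and 10.24 in Hke3, and 10.14, 10.33 and 10.15 in Hkh-2. In Hke3, replicates 1 and 2 lay below all arrays of the other groups, and replicate 3 lay among them. HCT116 control vehicle differed by 0.20 (SE 0.158) from Hke3 and by −0.19 (SE 0.158) from Hkh-2. Hke3 minus Hkh-2 was −0.38 (SE 0.158). Without the 2 arrays that stood apart these were 0.27, −0.32 and −0.59. Each array alone moved the FOXM1 value against Hke3, which was 0.06 without replicate 2 of HCT116 control vehicle and 0.40 without replicate 3 of Hke3.

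FOXK2, which recruits the deubiquitinase BAP1 and the SIN3A corepressor, was the member that ran the other way. Its probe set 226224_at read 10.21, 10.21 and 10.02 with doxycycline, 10.24, 10.29 and 10.02 with vehicle, 9.58, 9.48 and 9.71 in Hke3, and 9.86, 9.95 and 9.60 in Hkh-2. All HCT116 control arrays lay above all arrays of both lines, which overlapped each other. HCT116 control vehicle was higher by 0.60 than Hke3 (SE 0.108, 1.51-fold) and by 0.38 than Hkh-2 (SE 0.108, 1.30-fold). FOXK2 had 6 tested probe sets of 7, and all 6 were higher in HCT116 control vehicle than in Hke3, by 0.27 to 0.60. Against Hkh-2 they differed by 0.67, 0.49, 0.40, 0.38 and 0.03 in the same direction, and by −0.20 for 242938_s_at. Between the lines they disagreed, since Hke3 minus Hkh-2 was 0.40 for 223410_s_at and −0.40 for 203064_s_at. On 226224_at Hke3 minus Hkh-2 was −0.22 with all FOXK2 arrays and −0.27 without replicate 2 of HCT116 control vehicle and replicate 3 of Hke3.

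FOXA1 and FOXA2, which open chromatin at genes of gut endoderm, stayed near background. For FOXA1 (204667_at) only Hkh-2 replicate 1 exceeded 6, at 6.24, and the other 2 Hkh-2 arrays read 5.84 and 5.30. All FOXA2 values on 3 probe sets lay between 3.37 and 5.65. Since no group mean of either gene reached 6, both were left out of the fit and no size is given for them. Of the 30 probe sets that name 1 member, 16 had a group mean of 6 or more and 14 did not.

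**Figure D2:**
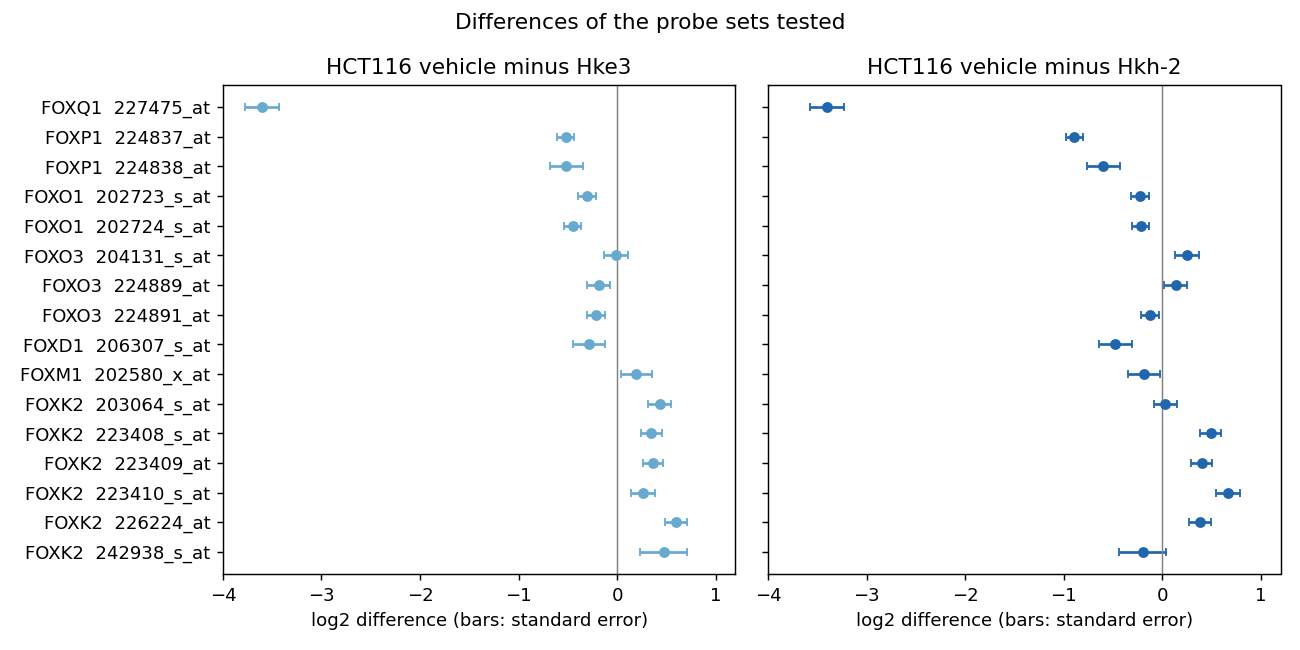
Log2 differences (x axis) of the 16 tested probe sets of the forkhead members (y axis, gene and probe set), for HCT116 control vehicle minus Hke3 on the left and HCT116 control vehicle minus Hkh-2 on the right. Points are fitted differences and bars are standard errors, and the FOXQ1 difference is computed against an HCT116 mean under 6. The 6 FOXK2 probe sets lie right of 0 against Hke3, and the 3 FOXO3 probe sets lie on both sides of 0 against Hkh-2.

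Over the 7 members with a gene-level fit, limma called 1 higher (FOXK2) and 3 lower (FOXQ1, FOXP1 and FOXO1) in HCT116 control vehicle than in Hke3. Of all 12852 genes tested, 24.6% were called higher and 23.2% lower in that contrast at an adjusted p under 0.05. Against Hkh-2, 1 member was higher (FOXK2) and 3 were lower (FOXQ1, FOXP1 and FOXD1), where 14.3% of all genes were higher and 21.7% lower. Against both lines, FOXK2 was higher and FOXQ1 and FOXP1 were lower, and 9.04% of all genes were higher and 12.6% lower than in both. Between the lines, FOXO1 was higher and FOXP1 lower in Hke3 than in Hkh-2, with 16.3% of all genes higher and 23.5% lower. The differences had been known when the members were chosen, so nothing is read from these shares. Each contrast with a line shares the vehicle arrays, and the values against Hke3 and Hkh-2 are therefore not independent. Without replicate 2 of HCT116 control vehicle and replicate 3 of Hke3, 5 members were called against Hke3 in place of 4, 6 against Hkh-2 in place of 4, and 6 between Hke3 and Hkh-2 in place of 2. Those 2 arrays were picked on values of these same data, so these counts are also only a description. Leaving out 1 array ended the call of FOXD1 against Hkh-2 in 7 of the 12 cases and that of FOXK2 against Hkh-2 without Hkh-2 replicate 3 (0.28). The FOXO1 call between the lines was lost in 15 alternatives, its other probe set among them.

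The members were not chosen by the doxycycline contrast, which was tested. None of the 7 members was called, and 0 of the 12852 genes (0%) were called by limma in either direction. An unadjusted p under 0.05 was found for 127 genes, fewer than that threshold would give on average if no gene differed. The spread was estimated over all 4 groups, and the lack of calls leaves small differences possible. The same number of calls, 0, was found in the fit with the replicate number as a block. That block shares its replicate effects over all 4 groups, so it is not a paired test of doxycycline against vehicle alone. FOXQ1 averaged 5.71 ± 0.0795 with doxycycline and 5.87 ± 0.0566 with vehicle (SD, n = 3 each), with arrays that did not overlap (adjusted p = 0.9999, limma), and no size is given since both means were near background. The 6 other members differed by −0.08 to 0.06, each with an adjusted p of 0.9999 in limma, and their arrays overlapped.

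Genes connected to the members were taken from 8 lists, none of which holds a member. Of the 35 other forkhead genes, 14 were tested. Against Hke3, 5 were higher and 1 lower in HCT116 control vehicle (median log2 difference 0.16, against 0.04 over all genes). Against Hkh-2, 3 were higher and 2 lower (0.10 against −0.02). The shares of all genes called were 24.6% higher and 23.2% lower against Hke3, and 14.3% and 21.7% against Hkh-2. Against both lines 2 were higher and 1 lower (14.3% and 7.14%, beside 9.04% and 12.6% of all genes). FOXN2, a forkhead gene of the N group, averaged 9.21 in HCT116 control vehicle, against 9.86 in Hke3 and 9.91 in Hkh-2, so that it differed by −0.65 (SE 0.0867, adjusted p = 5.16e-05, limma) and −0.69 (adjusted p = 3.8e-05). FOXL1, which is expressed in the mesenchyme under the gut epithelium, rose by 0.35 against Hke3 and 0.56 against Hkh-2, and FOXJ3 rose by 0.20 and 0.25. FOXJ3 lost the call against Hke3 in 14 of the alternatives tried, with values of 0.15 to 0.22 when 1 array was left out, and against Hkh-2 in 4 alternatives. FOXK1, the close relative of FOXK2, averaged 9.27 in HCT116 control vehicle, against 8.92 in Hke3 and 9.07 in Hkh-2 (adjusted p = 0.00274 and 0.0613, limma).

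Mitotic genes that FOXM1 activates did not run one way. All 22 were tested, and the shares of all genes were 24.6% higher and 23.2% lower against Hke3 and 14.3% and 21.7% against Hkh-2. Against Hke3, 3 rose and 6 fell in HCT116 control vehicle (median −0.08, against 0.04 over all genes), and against Hkh-2, 3 rose and 3 fell (median 0.06, against −0.02 over all genes). CDC25B, a phosphatase that activates CDK1, rose by 0.90 (SE 0.12, adjusted p = 5.51e-05, limma) and 1.28 (adjusted p = 2.74e-06) against Hke3 and Hkh-2. TPX2, which activates Aurora A on the spindle, rose by 0.75 and 0.86. CDC25C differed by −0.48 and −0.60, and CENPA, the histone of centromeres, by −0.40 and −0.38. Of the 10 FOXM1 partners in the DREAM and MuvB complexes, 3 were higher and 3 lower than in Hke3 (median 0.08), and 1 was higher and 4 lower than in Hkh-2 (median −0.10). E2F4, a repressive E2F, rose by 0.43 and 0.24, and RBL2, a pocket protein of DREAM, differed by −0.48 and −0.34, with calls against Hkh-2 that were lost in 17 alternatives for E2F4 and 10 for RBL2. Without replicate 2 of HCT116 control vehicle these values were 0.15 for E2F4 and −0.20 for RBL2. RBBP4 differed by −0.22 and −0.30 on its brightest probe set, and by 0.13 and 0.04 when its probe sets were averaged.

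Of FOXO targets, 5 were called lower and 3 higher in HCT116 control vehicle than in both lines. These are 25% and 15%, beside 12.6% and 9.04% of all genes. Whether this list differs from other genes was not tested, and it was chosen with earlier results known. Of 20 tested, 4 were higher and 9 lower in HCT116 control vehicle than in Hke3 (median −0.36, against 0.04 over all genes), and 4 rose and 7 fell against Hkh-2 (−0.10 against −0.02). IRS2, which carries the insulin receptor signal, averaged 9.49 in HCT116 control vehicle, against 11.4 in Hke3 and 11.7 in Hkh-2, so that HCT116 control vehicle differed by −1.86 (SE 0.094, adjusted p = 6.5e-09, limma) and −2.23 (adjusted p = 1.1e-09). KLF6, a zinc-finger factor, differed by −2.11 (adjusted p = 3.12e-08, limma) and −1.49 (adjusted p = 1e-06). CCNG2, an unusual cyclin of quiescent cells, differed by −0.90 and −0.74. CDKN1B, the CDK inhibitor p27, differed by −0.54 and −1.01. BCL2L11, which encodes the pro-death protein BIM, differed in direction, as it fell by 0.55 against Hke3 and rose by 0.38 against Hkh-2. Targets called in both contrasts on the high side in HCT116 were INSR, MXI1 and TXNIP, named after their values were seen.

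Of the regulators of FOXO proteins, 6 were called lower and 1 higher in HCT116 control vehicle than in both lines (30% and 5%, beside 12.6% and 9.04% of all genes). Whether the list differs from other genes was not tested, and it was chosen with earlier results known. Of 20 tested, 1 was higher and 10 lower in HCT116 control vehicle than in Hke3 (median −0.21, against 0.04 over all genes), and against Hkh-2, 1 rose and 7 fell (−0.17 against −0.02). STK3, a Hippo kinase that phosphorylates FOXO proteins, differed by −1.04 (SE 0.109, adjusted p = 6.82e-06, limma) and −1.07 (adjusted p = 5.96e-06). PIK3R1, the regulatory subunit of PI3K, differed by −0.60 and −0.64, and PIK3CB, a catalytic subunit, by −1.36 and −0.41. CREBBP, which acetylates FOXO proteins, differed by −0.46 and −0.42. Single arrays decided some of these calls. Without replicate 2 of HCT116 control vehicle, PIK3R1 differed by −0.44 and −0.48 and PIK3CB by −0.23 against Hkh-2, none of them called, and without Hkh-2 replicate 3 the calls against Hkh-2 of PIK3R1 (−0.57), PIK3CB (−0.35) and CREBBP (−0.39) were lost. Single arrays of Hke3 (replicate 1, −0.49, or 2, −0.47) ended the PIK3R1 call against Hke3, and Hkh-2 replicate 1 (−0.41) that of PIK3CB against Hkh-2. The list holds both activators and inhibitors of FOXO, and the one gene called higher against both lines was the deubiquitinase USP7, named after its values were seen.

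**Figure D3:**
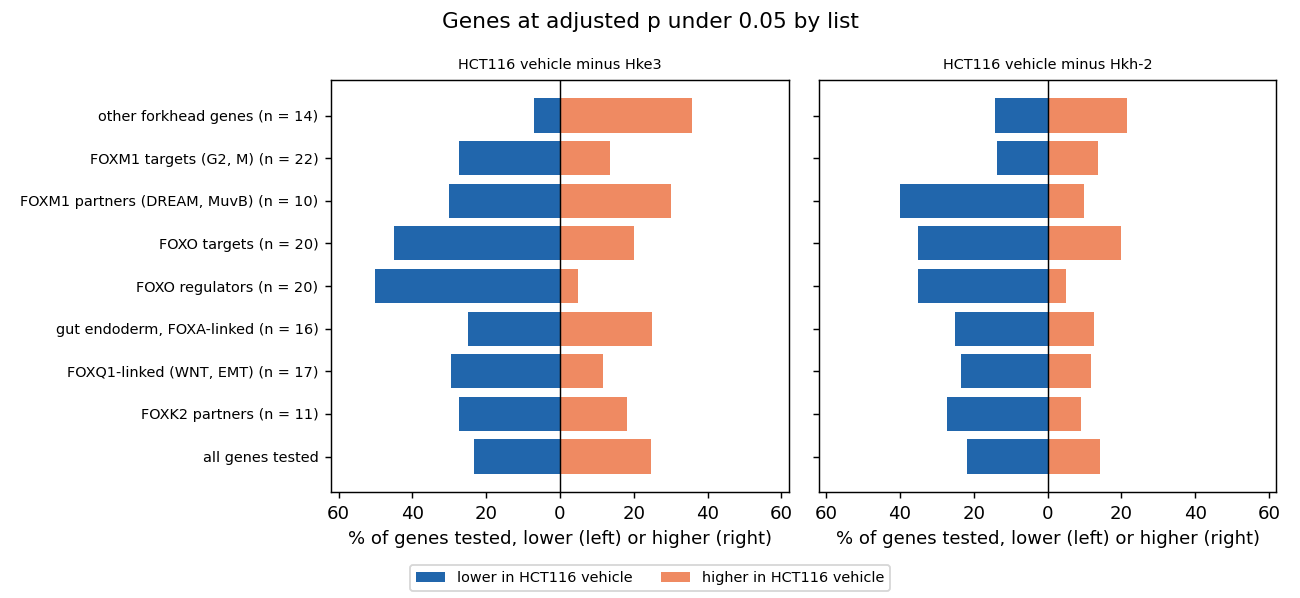
Share of the tested genes of each list (x axis, %) called by limma at an adjusted p under 0.05, lower (left) or higher (right) in HCT116 control vehicle than in Hke3 (left panel) and in Hkh-2 (right panel). Rows are the 8 lists with the number of genes tested, and the last row is all 12852 genes, with 24.6% higher and 23.2% lower against Hke3.

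Among genes tied to FOXQ1 in WNT signalling and epithelial-mesenchymal transition, 3 were called lower and 2 higher in HCT116 control vehicle than in both lines. These are 17.6% and 11.8%, beside 12.6% and 9.04% of all genes. The higher ones were TWIST1 and TCF7L2. TCF7L2, named after its values were seen, rose by 0.53 against Hke3 and 0.82 against Hkh-2. Of 17 tested, 2 were higher and 5 lower in HCT116 control vehicle than in Hke3 (median −0.11, against 0.04 over all genes), and against Hkh-2, 2 rose and 4 fell (0.04 against −0.02). The shares of all genes were 24.6% higher and 23.2% lower against Hke3 and 14.3% and 21.7% against Hkh-2. VIM, the mesenchymal intermediate filament vimentin, averaged 6.39 in HCT116 control vehicle, against 8.38 in Hke3 and 8.67 in Hkh-2, and differed by −1.99 (SE 0.159, adjusted p = 5.22e-07, limma) and −2.28 (adjusted p = 1.65e-07). CDH1, the epithelial cadherin, also differed, by −0.83 and −1.17, so that the mesenchymal and the epithelial gene were both lower in HCT116 control vehicle than in either line. SNAI2, a repressor of CDH1, was near background in HCT116 control vehicle (4.16) and in Hkh-2 (4.82) and averaged 8.55 in Hke3, which is at least 2.55 lower in HCT116 control vehicle on the log2 scale (adjusted p = 1.89e-09, limma). TWIST1, another repressor of CDH1, averaged 6.85 in HCT116 control vehicle, against 6.17 in Hke3 and 3.73 in Hkh-2, where it was near background.

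Gut endoderm factors and FOXA-linked genes were tested in 16 cases, of which 4 were higher and 4 lower in HCT116 control vehicle than in Hke3 (median 0.11) and 2 higher and 4 lower than in Hkh-2 (median 0.08). Over all genes, 24.6% were higher and 23.2% lower against Hke3, and 14.3% and 21.7% against Hkh-2. KLF5, a factor of proliferating intestinal crypt cells, averaged 10.3 in HCT116 control vehicle, against 7.68 in Hke3 and 8.63 in Hkh-2, and rose by 2.58 (SE 0.102, adjusted p = 7.18e-10, limma) and 1.63 (adjusted p = 5.6e-08). GATA6, an endoderm factor, differed by −0.92 and −0.62. HNF4G averaged 5.20 in HCT116 control vehicle, against 6.28 in Hke3 and 5.85 in Hkh-2, so that it was lower by at least 0.28 against Hke3. Of the FOXK2 partners 11 were tested, with 2 higher and 3 lower than in Hke3 (median 0.10) and 1 higher and 3 lower than in Hkh-2 (median −0.09). SUDS3, a subunit of the SIN3 corepressor, differed by −0.59 and −0.53, and ASXL2, a partner of BAP1, rose by 0.42 and 0.59. KDM1B, a histone demethylase, differed by −0.48 and −0.61. In the doxycycline contrast limma called 0 genes of each of these 8 lists.

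The genes whose pattern was most like that of FOXQ1 were sought among 1249 genes whose highest and lowest group means differed by at least 1. The highest Pearson r with FOXQ1 over the 12 arrays was 0.997 for TMEM248, followed by FAM221A (0.995), APOBEC3B (0.993), HMGN5 (0.993) and PTCH1 (0.992). The arrays fall in 2 clusters, the HCT116 controls and the recombined lines, so r mainly reports that separation and carries no test. TMEM248 averaged 9.16 in HCT116 control vehicle, against 10.5 in Hke3 and 10.3 in Hkh-2. PTCH1, the hedgehog receptor, averaged 4.72, near background, in HCT116 control vehicle, against 8.57 and 8.55 in Hke3 and Hkh-2.

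**Figure D4:**
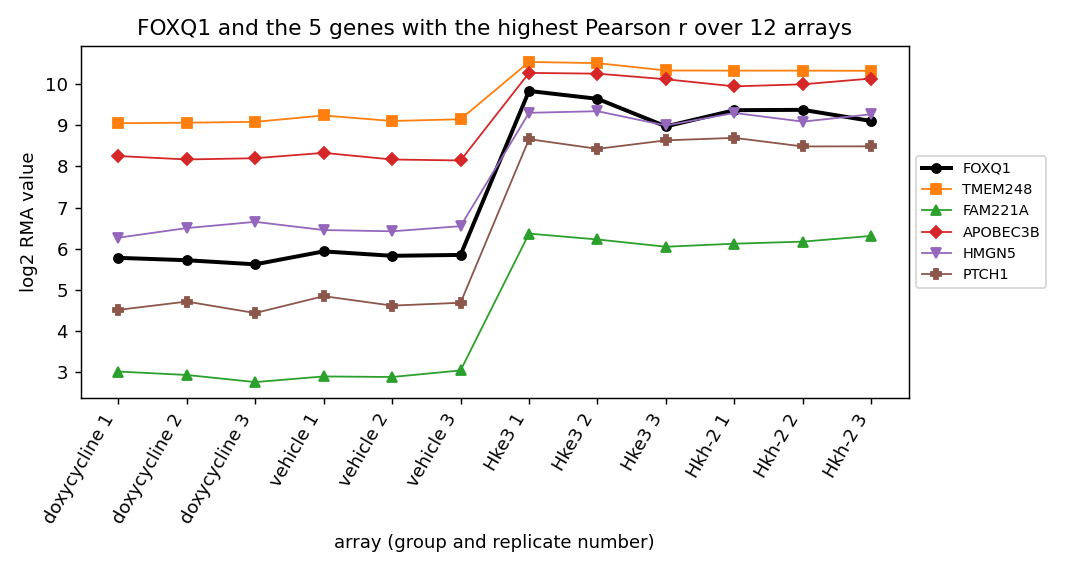
Deposited log2 RMA values (y axis) of FOXQ1 and of the 5 genes with the highest Pearson r with it, on each of the 12 arrays (x axis, by group and replicate number). All 6 genes step up between the HCT116 control arrays on the left and the Hke3 and Hkh-2 arrays on the right, and lines only join the arrays of a gene.

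FOXQ1 lies near FOXF2 and FOXC1 on chromosome 6, and the RefSeq table lists 10 protein-coding genes within 1 Mb of FOXQ1 or FOXC1 (GRCh38.p14). Of these 7 had a probe set and 4 were tested, FOXQ1 included. FOXF2, a forkhead gene of the gut mesenchyme, stayed near background at means of 4.25, 4.43, 4.17 and 4.13 in HCT116 control doxycycline, HCT116 control vehicle, Hke3 and Hkh-2. DUSP22, a phosphatase gene, was lower in HCT116 control vehicle, by −0.44 against Hke3 and −0.32 against Hkh-2 (adjusted p = 0.00292 and 0.0259, limma). EXOC2, an exocyst subunit, rose by 0.24 against both lines (adjusted p of 0.0345 for Hke3 and 0.0414 for Hkh-2, limma). GMDS, an enzyme of GDP-fucose synthesis, rose by 0.52 against Hke3 (adjusted p = 0.0056, limma) and differed by −0.32 from Hkh-2 (adjusted p = 0.0727). None of these neighbours differed by as much as FOXQ1.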

How the data were processed

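RNA of 12 arrays, 3 in each of 4 groups, was analysed. The deposited data hold log2 values of probe sets, for which the submitters' processing notes name RMA, and the version and the arrays normalized together are not given in the sources used here. Of the probe sets, 41097 have 1 gene symbol in the platform annotation, 1801 several and 11777 none here, and 41043 matched a RefSeq gene by ID.

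A gene was represented by its brightest probe set on average and kept where at least 1 group mean was 6 or more, which left 12852 of 19775 genes. The 4 group means were fitted over all arrays with limma (version 3.58.1 under R 4.3.3), with eBayes and Benjamini-Hochberg adjustment over the genes kept, two-sided at 0.05. Where 1 of both means was under 6, the size is stated as a lower bound measured from 6, a rule chosen after earlier results were seen.

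The members and lists were chosen with earlier results of these data known. Named genes are the members, up to 4 genes per list called in the same direction against both lines, up to 2 called in opposite directions, the 5 genes most like FOXQ1 and the neighbours of FOXQ1 and FOXC1. Genes outside this rule (FOXK1, INSR, MXI1, TXNIP, USP7 and TCF7L2) were named after their values were seen.

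Same-numbered arrays of HCT116 control doxycycline and vehicle deviated together (r = 0.228, 0.212 and 0.453). Those of doxycycline and Hkh-2 gave 0.076, 0.134 and 0.104, and those of vehicle and Hkh-2 gave −0.046, 0.422 and 0.337. Pairs with Hke3 lay between −0.58 and 0.355. No r is given for differently numbered arrays of doxycycline and vehicle, so whether the numbers pair the arrays is not settled. On simulated data of the 12852 genes with 200 changed for HCT116 control vehicle minus Hke3, limma recovered 73% at a log2 change of 0.5 and 96% at a change of 1, and 8.15% of its calls were false. The number of arrays limits the precision, and 23 alternatives for all genes were tried. The recombined gene itself is left out here.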

Additional observations from a re-analysis of the deposited data

Results flagged for a closer look

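The tested members and the genes named from the lists by rule made 36 genes. Of these, 14 differed between Hke3 and Hkh-2 at an adjusted p under 0.05 in limma. Over all genes, 16.3% were called higher and 23.5% lower in that contrast, so nothing is read from the count. For these 14 genes the differences from HCT116 control vehicle differ between the lines. For the 2 members among them, FOXP1 (−0.37) and FOXO1 (0.23), the value is a description, since the members were chosen with it known, and FOXO1 lost the call in 15 alternatives. The values are log2 differences of Hke3 minus Hkh-2. They were −0.36 for IRS2, 0.62 for KLF6, −0.46 for CDKN1B and 0.93 for BCL2L11 among FOXO targets, and 0.96 for the FOXO regulator PIK3CB. CDC25B, a FOXM1 target, differed by 0.38. Among gut endoderm and FOXA-linked genes, KLF5 differed by −0.95, CDH1 by −0.34, GATA6 by 0.30 and HNF4G by 0.43 (at least 0.28, since its Hkh-2 mean was under 6). SNAI2 differed by 3.73 (at least 2.55) and TWIST1 by 2.44 (at least 0.17), both with an Hkh-2 mean under 6. Single arrays ended some of these calls. The Hke3 minus Hkh-2 call was lost in 4 alternatives for HNF4G (0.43 without Hke3 replicate 1, 0.29 without Hke3 replicate 2 and 0.33 without Hkh-2 replicate 2), and HNF4G moved by over 1.5 times without Hke3 replicate 2. It was lost in 3 for CDC25B (0.30 without Hke3 replicate 3, 0.35 without Hkh-2 replicate 1 and 0.34 without Hkh-2 replicate 3). GATA6 lost it in 3, at 0.26 without Hke3 replicate 1 and 0.25 without Hkh-2 replicate 2 among them, and CDH1 in 2, at −0.32 without Hke3 replicate 1 and −0.30 without Hkh-2 replicate 1. No group was large enough for a search for single arrays far from the rest.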

How the results depend on the processing

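FOXQ1 lay at −3.86 to −3.43 against Hke3 and −3.49 to −3.36 against Hkh-2 over the alternatives, a range given as a description, since the members were chosen on these differences. FOXK2 was called higher against Hke3 in all whole-gene alternatives and lost the call against Hkh-2 without Hkh-2 replicate 3 (0.28). FOXD1 lost the call against Hkh-2 in 7 alternatives, all leaving out 1 array. Reversed values were −0.20 for FOXK2 against Hkh-2 on probe set 242938_s_at, 0.40 for FOXK2 between the lines on 223410_s_at, and RBBP4 with averaged probe sets (0.13 against Hke3, 0.0396 against Hkh-2) or without _s_at and _x_at probe sets (0.43 and 0.37). The cause was not tested.

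Counts of calls moved by over 1.5 times as follows. Of 2 members called between the lines, 1 was called with averaged probe sets, without _s_at and _x_at probe sets, with array medians subtracted, with only the groups compared, with trend and robust eBayes and with the replicate block, 6 without replicate 2 of HCT116 control vehicle and replicate 3 of Hke3, and 1 to 5 when 1 array was left out (5 without Hke3 replicate 3). Other forkhead genes called were 6 against Hke3, with 3 in the fit of only the groups compared and 3 to 6 leaving out 1 array (3 without Hke3 replicate 1). Against Hkh-2 they were 5, with 3 without _s_at and _x_at probe sets, without the filter, with a minimum of 7 and with trend and robust eBayes, 8 with the control arrays pooled, 9 without the 2 arrays named above, and 2 to 7 leaving out 1 array. FOXM1 targets were 9 against Hke3 and 6 against Hkh-2, with 4 and 1 without _s_at and _x_at probe sets, and 10 against Hkh-2 without the 2 arrays. DREAM and MuvB partners were 6 against Hke3 (3 with averaged probe sets) and 5 against Hkh-2, with 1 averaged, and 3 without _s_at and _x_at probe sets, in the fit of only the groups compared and with the replicate block, and 3 to 6 leaving out 1 array. FOXO regulators were 8 against Hkh-2, with 5 averaged and 4 to 9 leaving out 1 array (4 without Hkh-2 replicate 3). FOXO targets were 11 against Hkh-2, with 7 averaged. FOXK2 partners were 5 against Hke3 and 5 to 8 leaving out 1 array (8 without Hke3 replicate 3). The replicate block changed no other count by over 1.5 times, and under it 2992 genes were higher and 2893 lower in HCT116 control vehicle than in Hke3. Counts over all genes stayed within 1.5 times in every alternative. Signal over background limits FOXQ1 in HCT116 and the members FOXA1 and FOXA2.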
